A study of Mus musculus with 10 samples.

Results

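The comparison described here is that of RAW264.7 cells given **1** at 10 µM with LPS against cells given the solvent with LPS. RAW264.7 is a mouse macrophage line, LPS (lipopolysaccharide) is a component of the outer membrane of Gram-negative bacteria, and **1** is an unsaturated keto fatty acid isolated from a marine cyanobacterial mat. The members are all genes of these 4 libraries, 2 per condition, out of 10 libraries in the series, and 14172 of the 43432 genes in the deposited table had enough reads to be tested. DMSO + LPS cells received solvent (0.5% DMSO) and LPS at 1 µg/mL, and the cells at 10 µM received **1** and LPS at the same dose. Exposure to **1** or solvent began 1 h ahead of LPS, and RNA was taken at 12 h. The other libraries were DMSO without LPS and **1** at 3.2 and 32 µM with LPS. All 10 libraries entered the fit behind the p-values and calls given below. Values of the other libraries are given where they show how 10 µM differed from its neighbors. Nothing in the labels says that libraries of one condition came from separate cultures, so the p-values measure the spread between these libraries, which may be technical. A single cell line stood for macrophages in every condition.

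LPS is sensed by the receptor Tlr4 with its partners Cd14 and Ly96. One branch of the signal activates NF-κB, which drives cytokine and chemokine genes such as Il1b and Il6, and another induces interferon-β, which acts through factors such as Stat2 and Irf9 on interferon-stimulated genes that restrict viruses. The transcription factor Nrf2 is held back by Keap1 and, once released, binds antioxidant response elements in genes of glutathione and quinone metabolism.

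At 10 µM, 5 Nrf2 target genes of detoxification and the lipid genes Plin2 and Cpt1a were called higher than in DMSO + LPS, and many genes of the inflammatory and interferon responses were called lower. Nqo1, a quinone reductase and classic Nrf2 target, was 3.16-fold higher, and Plin2, the coat protein of lipid droplets, 1.91-fold higher. Ccl2, a monocyte-attracting chemokine, was 2.05-fold lower, Il1b 1.79-fold lower, and Nos2, the inducible nitric oxide synthase, 1.85-fold lower. Tnf, a cytokine gene strongly induced by LPS, was at nearly the same level in both conditions.

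By edgeR's quasi-likelihood test with Benjamini-Hochberg adjustment over all 14172 genes, 122 genes (0.861%) were called, that is, they differed by 1.5-fold or more and their adjusted p was under 0.05. Of these, 40 were higher (0.282% of the genes tested) and 82 were lower (0.579%). With the unadjusted p below 0.05 in place of the adjusted one, 424 genes passed (2.99%), 235 higher (1.66%) and 189 lower (1.33%). By the adjusted p alone, with no limit on the fold change, 378 genes passed (2.67%), 137 higher (0.967%) and 241 lower (1.70%), and by the unadjusted p alone 1709 (12.1%), 824 higher (5.81%) and 885 lower (6.24%). Levels are given as CPM, the reads of a gene per 1e6 reads of its library after TMM scaling, which evens out differences in library composition. In bulk RNA, fewer cells that express a gene and less RNA per cell cannot be told apart. Most called changes were modest, with a median of 0.84 on the log2 scale among the higher genes and of 0.75 among the lower ones, and 36 genes, 17 higher and 19 lower, changed at least 2-fold. Just inside the limit of fold change lay Ank (log2 fold change 0.59) and Ifi204 (-0.60), and just outside it Oas1b (-0.58) and Lif (-0.58). Selp (adjusted p = 0.0474) and Bambi-ps1 (0.0495) passed narrowly, while Gata3 and Il1bos (both 0.0505) did not.

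**Figure D1:**
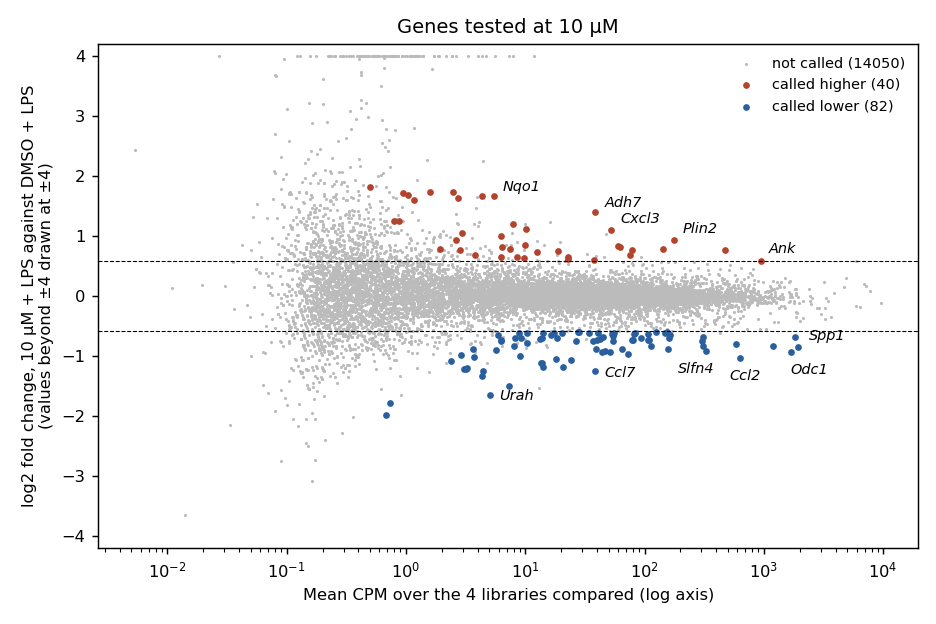
Each point is 1 of the genes tested, with its mean CPM over the 4 libraries compared on a log axis and its log2 fold change at 10 µM against DMSO + LPS. The dashed lines mark 1.5-fold, and the 40 genes called higher (red) and 82 called lower (blue) are few among the 14172 and mostly lie within 2-fold of the control.

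Library totals ran from 45966803 to 58976377 counts over the 10 libraries. On the smallest total, before TMM scaling, 5 CPM meant 230 counts and a counting error of 6.59%. The difference between replicates in log2 CPM had a standard deviation of 0.323 at 10 µM and 0.102 in DMSO + LPS, over 9561 genes. Replicate 1 at 10 µM had the most genes detected of the 10 libraries (19928, against 17993 in replicate 2). It held transcripts that were almost absent elsewhere, namely 379 genes with at least 10 counts and a CPM at least 8 times that of every other library except replicate 1 at 3.2 µM. These genes took 0.0659% of its counts, against 0.00935% in replicate 1 at 3.2 µM and at most 0.000687% in the others, and they include the epithelial genes Krt8 and Epcam (1039 and 451 counts). The summed level of 11 fibroblast, epithelial and endothelial markers was 46.8 CPM there, 7.81 CPM in replicate 1 at 3.2 µM and between 0.708 and 1.48 CPM in the other libraries, and Krt8 was at 0 in both DMSO + LPS libraries. Of the 379 genes 115 were tested and 0 were called by edgeR, although 65 are among the 424 that passed the unadjusted p and DESeq2 called 8, all higher. With the 379 genes left out, 127 genes were called, 43 higher and 84 lower.

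The macrophage markers Adgre1, Csf1r, Itgam, Cd68, Lyz2, Ptprc, Mertk and Fcgr1 were detected in every library, and their summed level was 5983 and 5401 CPM at 10 µM against 6553 and 6530 CPM in DMSO + LPS. Fcgr1, an IgG receptor, was the only 1 of the 8 that was called (log2 fold change -0.68), as were 0.861% of all genes. By the adjusted p alone 4 of the 8 passed (2.67% of all genes), Csf1r higher (0.25) and Fcgr1, Itgam (-0.44) and Adgre1 (-0.25) lower, and 5 of the 8 had a lower mean (median -0.16). Of the 10 T cell, B cell and neutrophil markers, Cd3e had 0 counts in every library, Cd3d had 0 in the 4 libraries compared and S100a8 alone was expressed highly enough to be tested. Their summed level was 6.77 and 3.05 CPM at 10 µM and 6.76 and 6.47 CPM in DMSO + LPS. The part of these transcripts in the results was not tested.

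Each of the 122 called genes moved the same way in both libraries at 10 µM, and for no called gene was the difference from the DMSO + LPS mean in one library over 1.94 times that in the other on the log2 scale. The median difference of the higher genes was 0.90 in replicate 1 and 0.87 in replicate 2, and that of the lower genes was -0.79 and -0.78. For all 122 genes both libraries at 10 µM lay on one side of both control libraries, as they did for 17.9% of all genes tested in the upward and 17.9% in the downward direction. The calls rest on these same libraries, so this is a description of the genes and not a test.

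**Figure D2:**
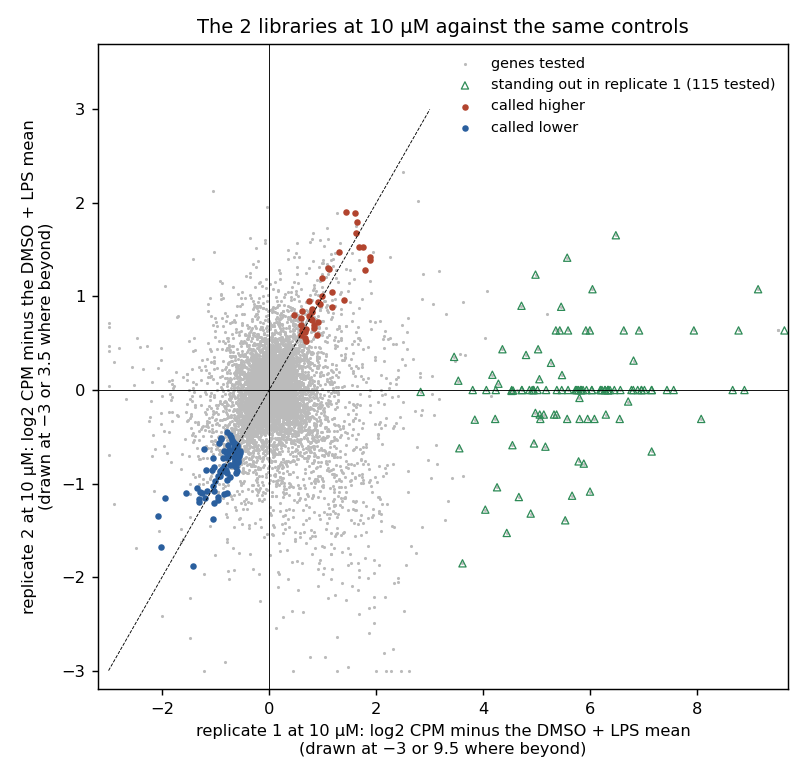
Each point is a gene tested, with the log2 CPM of replicate 1 (horizontal) and replicate 2 (vertical) at 10 µM minus the mean of the DMSO + LPS libraries. Called genes lie near the dashed line of equal change in both libraries, whereas the 115 tested genes that stood out in replicate 1 (triangles) lie far to the right and at about 0 or with no shared direction in replicate 2.

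The number of calls changed when a single library was left out. Such a fit left 1 library in a group, which also loosened the filter on counts. Without replicate 2 at 10 µM, the library left was the one with the transcripts that stood out. Without replicate 1 at 10 µM 97 genes were called, 82 of them among the 122, and without replicate 2 227 were called, 98 of them shared. Leaving out replicate 1 of DMSO + LPS gave 52 calls with 46 shared, and leaving out its replicate 2 gave 59 with 56 shared. The 38 genes called whichever of the 4 libraries was left out are Adh7, Akr1b8, Ass1, Cd300a, Cpt1a, Enpp2, Nqo1, Plin2, Ptgs1 and Serpinb9b (10 higher) and Ccl2, Ccl7, Ccl22, Ccrl2, Cd83, Cmpk2, Ctsc, H2-T22, Hdc, Ifit3, Ifit3b, Il1a, Il1b, Il1rn, Mx2, Nos2, Odc1, Peak1os, Rsad2, Siglec1, Slc28a2, Slfn4, Spp1, Stat2, Tap1, Thbs1, Upp1 and Zbp1 (28 lower). Every other gene described as called lost its call without at least 1 library, Il6 and Gsta1 without either DMSO + LPS library, Cxcl3 without replicate 1 of DMSO + LPS, and Gsta3 without any 1 of the 4.

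Of the Nrf2 target genes, Nqo1, Akr1b8, Gsta1, Gsta3 and Mgst2 rose. Nqo1 (chr8:107388225-107403206, minus strand, GRCm38) was at 2.65 and 2.58 CPM in DMSO + LPS and at 8.94 and 7.61 CPM at 10 µM, with a log2 fold change of 1.66 ± 0.11 (SE) and an adjusted p of 0.000423. Its 10 µM libraries lay well above both controls, and those in turn lay above DMSO without LPS (0.306 and 0.37 CPM). Akr1b8, an aldo-keto reductase, was at 349 and 356 CPM in DMSO + LPS and at 632 and 571 CPM at 10 µM (log2 fold change 0.77 ± 0.07, adjusted p = 0.00182). The glutathione transferases Gsta1 (1.73 ± 0.27) and Gsta3 (1.72 ± 0.34) rose from levels below 1 CPM, and the microsomal family member Mgst2 rose from 13 and 15.3 CPM to 26.3 and 21.2 CPM. Reads of Gsta1 may be shared with its near copy Gsta2 (1.26, not called), so their split is uncertain.

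In the list of 40 Nrf2 target genes, 38 were tested, 36 had a higher and 2 a lower mean at 10 µM, and 5 were called, all higher (0.282% of all genes were called higher). By the adjusted p alone 16 were higher and 0 lower. The median log2 fold change of the list was 0.37, being 0.37 in replicate 1 and 0.30 in replicate 2, against a median of 0.02 over all genes tested. One member, the glutathione peroxidase gene Gpx2, is among the 379 genes of replicate 1 at 10 µM, with 80 and 0 counts at 10 µM and 0 in both DMSO + LPS libraries. Without it 35 of 37 had a higher mean and the median was 0.36. Most members changed by less than 1.5-fold, among them Prdx1, a peroxiredoxin, which went from 4652 and 4748 CPM to 7357 and 6722 CPM (0.58 ± 0.06, adjusted p = 0.00254). Sulfiredoxin Srxn1 (0.35, adjusted p = 0.00353), the glutathione synthesis subunit Gclm (0.45, 0.017), catalase Cat (0.43, 0.00254) and the autophagy receptor Sqstm1 (0.29, 0.0105) passed the adjusted p but not the fold change. Hmox1, the heme oxygenase, at 1241 and 1263 CPM in DMSO + LPS and 1485 and 1353 CPM at 10 µM, did not pass (0.18 ± 0.05, adjusted p = 0.193), and neither did thioredoxin reductase Txnrd1 (0.25, 0.0715) or the cystine transporter Slc7a11 (0.07, 0.91).

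Other genes called higher, outside the Nrf2 list, had varied roles. Adh7, an alcohol dehydrogenase that oxidizes retinol, was at 21.6 and 21.1 CPM in DMSO + LPS and at 52.8 and 59.1 CPM at 10 µM, a log2 fold change of 1.39 ± 0.06 with an adjusted p of 9.2e-05, the smallest among the genes called higher. Ass1, which makes argininosuccinate in the resynthesis of arginine, rose from 6.13 and 6.83 CPM to 14.6 and 13.4 CPM (1.11 ± 0.10, adjusted p = 0.00182). The serine incorporator family member Serinc2 rose by 1.20 and the protease inhibitors Serpinb1b and Serpinb9b by 1.00 and 0.83. Plpp3, a lipid phosphate phosphatase, rose by 0.85, the myeloid receptor Tarm1 by 0.82, Wwc1 by 0.78 and the inhibitory receptor Cd300a by 0.78. Enpp2, the enzyme autotaxin that produces lysophosphatidic acid, was at 2.2 and 1.96 CPM in DMSO + LPS and at 6.45 and 6.75 CPM at 10 µM. Ptgs1, the constitutive cyclooxygenase, rose from 1.41 and 0.873 CPM to 3.46 and 4.22 CPM but stayed below its level in DMSO without LPS (11.2 and 10 CPM), whereas the inducible Ptgs2 was not called (0.16 ± 0.11, adjusted p = 0.726).

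Among 25 tested genes of fatty acid response and lipid droplets, 2 were called higher (0.282% of all genes) and 1 lower (0.579%), and the median log2 fold change was 0.08. Plin2 was at 120 and 122 CPM in DMSO + LPS and at 234 and 229 CPM at 10 µM (0.94 ± 0.05, adjusted p = 0.000163). Cpt1a, the enzyme that commits fatty acids to mitochondrial oxidation, rose from 58.1 and 56.9 CPM to 96.7 and 99.7 CPM (0.77 ± 0.05, adjusted p = 0.000312). The separation between groups was wide for both genes. Fabp4, a fatty acid carrier of macrophages and adipocytes, fell by 0.72, and the oxidation genes Acadl, Acadm, Acadvl, Hadha and Hadhb were not called, with log2 fold changes between -0.08 and 0.18. Angptl4 (0.16) and Cd36 (0.13) were not called either. Of 10 LXR target genes, which handle sterol efflux and fatty acid synthesis, 0 were called by edgeR or DESeq2. In this list 1 passed the adjusted p alone, upward (0.967% of all genes), and 2 an unadjusted p below 0.05 (12.1% of all genes). Abcg1 was at 0.39 and Abca1 at -0.06.

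All 22 cholesterol synthesis genes had a lower mean at 10 µM, but 0 were called by edgeR or DESeq2, 2 (Fdps and Dhcr7) passed the adjusted p alone and 18 an unadjusted p below 0.05, which 6.24% of all genes tested passed in the lower direction. Their median log2 fold change was -0.22. Fdps, which makes farnesyl diphosphate, was at 251 and 256 CPM in DMSO + LPS and at 199 and 200.1 CPM at 10 µM.

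**Figure D3:**
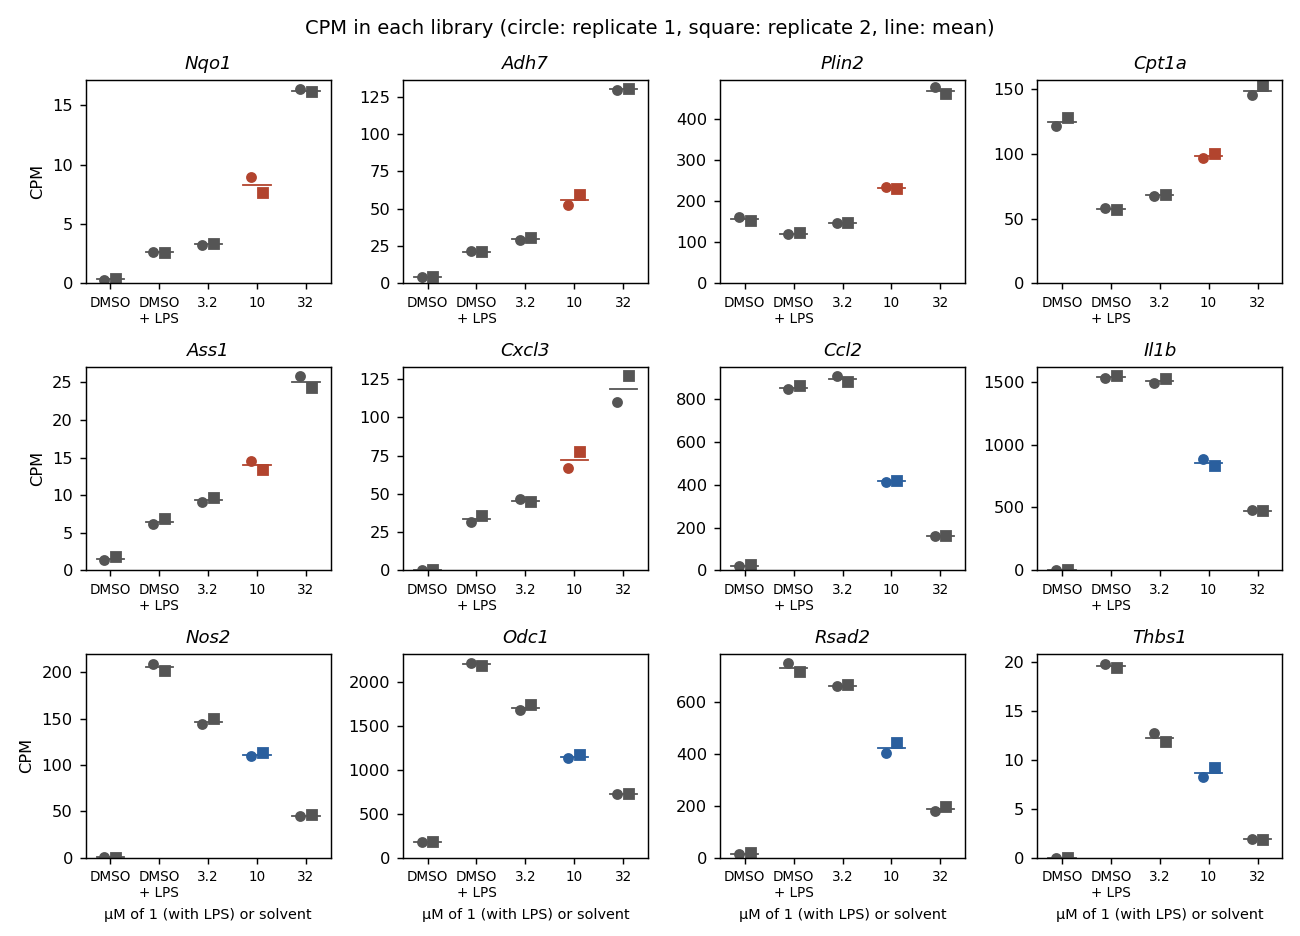
CPM of 12 called genes in each of the 10 libraries, with conditions on the horizontal axis, circles for replicate 1, squares for replicate 2 and a line at the mean. At 10 µM (colored) Nqo1 to Cxcl3 lie above both DMSO + LPS libraries, and Ccl2 to Thbs1 lie below them while staying above DMSO without LPS.

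Chemokine genes split by gene. Ccl2 (chr11:82035571-82037453, plus strand) was at 844 and 862 CPM in DMSO + LPS and at 414 and 418 CPM at 10 µM (log2 fold change -1.03 ± 0.04, adjusted p = 5.01e-05). Its neighbor on chromosome 11, Ccl7, another attractant of monocytes, fell from 56.4 and 52.9 CPM to 22 and 23.8 CPM (-1.25 ± 0.10, adjusted p = 0.00139). For both genes the replicates were close together and the groups far apart. Ccl22, an attractant of regulatory T cells, fell by 0.92 and Cxcl10, an attractant of activated T cells, by 0.75. Cxcl3, which attracts neutrophils, moved the other way, from 31.8 and 35.5 CPM to 66.7 and 77.1 CPM (1.10 ± 0.10, adjusted p = 0.00353), and its relative Cxcl2 was at 0.30 without being called (adjusted p = 0.39). In all, 4 of 17 tested chemokine genes were called lower (0.579% of all genes) and 1 higher (0.282%), with a median of -0.41. Ccl9 passed the adjusted p alone (-0.38, adjusted p = 0.00353), and Ccl3 (-0.41, 0.051), Ccl4 (-0.46, 0.26) and Ccl5 (0.04, 0.98) did not pass.

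Among 28 tested cytokine genes 5 were called lower (0.579% of all genes) and 0 higher, and 25 had a lower mean, as did 6401 of the 14172 genes tested. The median was -0.50. The called members belong to the interleukin-1 family, apart from Il6. Il1b was at 1529 and 1541 CPM in DMSO + LPS and at 885 and 829 CPM at 10 µM (-0.84 ± 0.04, adjusted p = 0.000163), and Il1a was at 402 and 393 CPM and at 226 and 219 CPM (-0.83 ± 0.05, adjusted p = 0.00022). Il1rn, which encodes the antagonist of the interleukin-1 receptor, fell as well, from 2286 and 2241 CPM to 1443 and 1375 CPM (-0.68 ± 0.04, adjusted p = 0.000348). Il6 fell from 94.6 and 99 CPM to 46 and 53.6 CPM (-0.96 ± 0.11, adjusted p = 0.00852), and Il1f6, the interleukin-36 alpha gene, by 0.83. Tnf was at 1395 and 1422 CPM in DMSO + LPS and at 1440 and 1449 CPM at 10 µM (0.04 ± 0.04, adjusted p = 0.833). The granulocyte factor Csf3 (-0.54, adjusted p = 0.0326) and Lif (-0.58, 0.0209) stayed within 1.5-fold, and Il10, an anti-inflammatory cytokine, was at -0.21 (adjusted p = 0.75).

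Of 36 tested genes for inflammatory enzymes and secreted effectors, 8 were called lower (0.579% of all genes) and 2, Ass1 and Ptgs1, higher (0.282%). Nos2 (chr11:78920787-78960254, plus strand) was at 209 and 201 CPM in DMSO + LPS and at 109 and 113 CPM at 10 µM (-0.89 ± 0.09, adjusted p = 0.00247), and in DMSO without LPS it was at 0.034 and 0 CPM. Odc1, the first enzyme of polyamine synthesis, fell from 2221 and 2190 CPM to 1138 and 1165 CPM (-0.94 ± 0.04, adjusted p = 5.01e-05). Spp1, the secreted matrix protein osteopontin, went from 2508 and 2507 CPM to 1400 and 1378 CPM (-0.85 ± 0.03, adjusted p = 5.01e-05). Thbs1, a matrix glycoprotein with 0 counts in both DMSO libraries without LPS, fell from 19.8 and 19.3 CPM to 8.19 and 9.11 CPM (-1.18 ± 0.09, adjusted p = 0.00182). The matrix metalloproteases Mmp3 (-1.24) and Mmp9 (-1.06) and the siderophore binder Lcn2 (-0.94) were called lower, whereas Mmp13 (0.00) and Sod2 (-0.10) were not called and Acod1, the itaconate-producing enzyme, passed the adjusted p alone (-0.20, adjusted p = 0.0302).

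Outside the lists, the largest decreases at 5 CPM or more were in Urah, which acts in urate breakdown (-1.65, from 7.58 and 7.77 CPM to 2.84 and 2.06 CPM), Gm9115 (from 10.9 and 10.8 CPM to 2.79 and 4.84 CPM), the nucleoside transporter Slc28a2 (-1.18), the protein kinase C substrate Marcks (-1.12), the uridine phosphorylase Upp1 (-1.12), Hdc, which makes histamine (-1.05), and Scimp, a transmembrane adaptor of immune cells (from 12.3 and 12 CPM to 5.99 and 6.17 CPM). The lectin Siglec1 fell from 70.9 and 64.9 CPM to 35.5 and 35.9 CPM (-0.93 ± 0.05, adjusted p = 0.000281). Slc28a2 and Gm14085 (-1.22) are near copies, as are Ifit3 and Ifit3b, and the split of reads within such pairs is uncertain. Peak1os, an antisense gene, was called lower (-0.70), and its reads cannot be told apart from those of its partner, since the use of strand in counting is not given in the sources used here.

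All 50 tested interferon-stimulated genes had a lower mean at 10 µM than in DMSO + LPS. Of these, 14 were called lower and 0 higher (18 and 0 by DESeq2), against 0.579% of all genes called lower, and 31 passed the adjusted p alone. The median log2 fold change was -0.51, being -0.57 in replicate 1 and -0.46 in replicate 2, and for 47 of the 50 both libraries at 10 µM were below both controls, as for 17.9% of all genes. Slfn4, a Schlafen family member of myeloid cells, went from 436 and 428 CPM to 212 and 244 CPM (-0.92 ± 0.08, adjusted p = 0.00162). Ifit3, an antiviral partner of Ifit1, went from 145 and 143 CPM to 80.3 and 81.7 CPM (-0.83 ± 0.04, adjusted p = 0.000168), and Rsad2, the antiviral enzyme viperin, from 751 and 718 CPM to 403 and 445 CPM (-0.79 ± 0.08, adjusted p = 0.00251). For neither of these genes did the groups overlap. Stat2, the transcription factor itself, fell by 0.65, while Irf9 (-0.11, adjusted p = 0.36) was not called and Irf7 passed the adjusted p alone (-0.55, 0.0041). Also called lower were Cmpk2 (-0.75), Mx2 (-0.75), the nucleic acid sensor Zbp1 (-0.74), Ifit1 (-0.68), the guanylate-binding protein gene Gbp2 (-0.66), the peptide transporter Tap1 (-0.63), Isg20 (-0.62), Ifi47 (-0.60) and Ifi204 (-0.60). Isg15 changed by -0.62 but varied more between replicates (adjusted p = 0.072). Of 18 alternative fits 7 called Isg15, DESeq2 on all 10 libraries among them, and 11 did not. Ifnb1, the interferon-β gene, at 1.05 and 1.23 CPM in DMSO + LPS and 0.795 and 0.619 CPM at 10 µM, was not called (-0.69, adjusted p = 0.36).

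The promoters of called genes were searched for 4 motifs in RefSeq windows (GRCm38.p6) that run from 250 bases before to 50 bases after a transcription start, on both strands. Windows were found for 10066 of the 14172 genes, 35 of the 40 called higher and 50 of the 82 called lower. The interferon-stimulated response element, written GAAANNGAAA, was in 23.1% of 65 windows of genes called lower, 0% of 41 windows of genes called higher and 3.26% of 12773 windows of all genes tested. The kappa B site, written GGGNNNTTCC, was in 16.9%, 7.32% and 6.45% of the same windows. The core of the antioxidant response element, written TGACNNNGC, was in 12.3% of windows of genes called lower, 22% of those called higher and 14.4% of all. A direct repeat 1 element, written AGGTCANAGGTCA, was in 0.0313% of all windows and in 0 windows of called genes. Some genes had more than 1 window, windows of a gene could overlap, and near copies such as Ifit3 and Ifit3b were counted apart. By gene with a window, the interferon-stimulated response element was in 26% of those called lower, 0% of those called higher and 3.92% of all. In the same order, the kappa B site was in 16%, 8.57% and 7.57%. The antioxidant response element core was in 16%, 25.7% and 17%. A match says only that the letters occur, and these shares were not tested.

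Stretches around matches in genes described above are shown 5′ to 3′ on the strand of the gene, with each whole match of the motif named for that gene in capitals, to show where the letters lie in genes whose values are given above. In Ifit3, Ifit1, Rsad2 and Stat2, all lower at 10 µM, the capitals are the interferon-stimulated response element read on the opposite strand. In Cxcl10 and Il6, both lower, and in Cxcl3, which was higher, they are the kappa B site. In Gsta3, which was higher, they are the antioxidant response element core. All 5 called Nrf2 target genes had a window and Gsta3 was the only 1 of them with this core, which was also in the windows of Cxcl10 and Rsad2, both lower.
Ifit3, chr19:34583343-34583412, plus strand: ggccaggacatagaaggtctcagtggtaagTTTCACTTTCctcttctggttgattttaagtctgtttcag
Ifit1, chr19:34640755-34640824, plus strand: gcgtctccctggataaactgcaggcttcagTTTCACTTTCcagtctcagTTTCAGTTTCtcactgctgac
Rsad2, chr12:26456533-26456602, minus strand: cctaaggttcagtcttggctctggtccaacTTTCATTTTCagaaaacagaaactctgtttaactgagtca
Stat2, chr10:128270248-128270315, plus strand: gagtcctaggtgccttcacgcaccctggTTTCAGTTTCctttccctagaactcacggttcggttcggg
Cxcl10, chr5:92349009-92349078, minus strand: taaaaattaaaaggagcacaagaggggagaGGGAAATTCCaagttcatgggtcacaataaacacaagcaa
Il6, chr5:30013040-30013109, plus strand: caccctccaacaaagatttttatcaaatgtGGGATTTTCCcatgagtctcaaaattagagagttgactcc
Cxcl3, chr5:90785998-90786067, plus strand: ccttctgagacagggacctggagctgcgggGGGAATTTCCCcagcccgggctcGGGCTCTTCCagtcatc
Gsta3, chr1:21240434-21240502, plus strand: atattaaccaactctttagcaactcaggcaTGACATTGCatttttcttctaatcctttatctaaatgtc

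The interferon-stimulated response element begins 156 and 122 bases before the start in Ifit3, where the latter match runs past the printed stretch, 104 and 85 bases before it in Ifit1, 120 in Rsad2 and 222 in Stat2. The kappa B site begins 159 and 104 bases before the start in Cxcl10, the latter outside the stretch, and 44 bases before it in Il6. In Cxcl3 it begins 73 bases before the start, overlaps a match on the opposite strand at 72 bases and recurs at 50 bases. In Gsta3 the antioxidant response element core begins 121 bases before the start. The first matches of Ifit3 and Ifit1 hold the same 10 letters. Cxcl3 holds kappa B matches as Il6 and Cxcl10 do, and it moved in the opposite direction to them.

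Of 36 tested receptor and co-stimulatory genes, 26 had a lower mean (6401 of the 14172 genes tested), 4 were called lower (0.579% of all genes) and 0 higher, with a median of -0.30. Cd86 (-1.20, adjusted p = 0.00671) and Cd83 (-0.70, 0.000648), which mark activated antigen-presenting cells, were called, as were the RNA sensor Tlr8 (-0.88) and the chemerin-binding receptor Ccrl2 (-0.88). Tlr8 was at 14.5 and 16 CPM in DMSO without LPS, at 5.01 and 4.36 CPM in DMSO + LPS and at 2.51 and 2.59 CPM at 10 µM, so that its level moved further from that of unstimulated cells. The LPS receptor genes Tlr4 (0.10, adjusted p = 0.86) and Ly96 (0.05, 0.96) were not called, and Cd14 was slightly lower (-0.30, 0.00555). Trem2, a lipid receptor, passed the adjusted p alone in the upward direction (0.54, 0.0067) and Trem1, which amplifies inflammatory signals, in the downward direction (-0.52, 0.00479).

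Of 30 tested NF-κB subunits and feedback regulators, 22 had a lower mean at 10 µM and 1 was called (0.861% of all genes were called), the phosphatase gene Dusp2, which fell from 147 and 154 CPM to 103 and 95.9 CPM (-0.60 ± 0.06, adjusted p = 0.00353). In the lower direction 4 passed the adjusted p alone (1.70% of all genes) and 14 the unadjusted p (6.24%), and for 19 both libraries at 10 µM were below both controls (17.9%). The median was -0.09, and Nfkbia (-0.16, adjusted p = 0.38), Nfkb1 (-0.15, 0.3), Rela (0.02, 0.97) and Socs3 (-0.06, 0.69) did not pass, while Nfkbiz, a coactivator of Il6, passed the adjusted p alone (-0.42, 0.029), as did Irak3, an inhibitor of Toll-like receptor signals (-0.31, 0.0197). Among 26 early response and interferon regulatory factor genes only Nr4a1, an orphan nuclear receptor, was called (-0.65, adjusted p = 0.0137), while 9 were higher and 5 lower at an unadjusted p below 0.05 (5.81% and 6.24% of all genes).

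In 7 further lists edgeR called 0 members, namely glucocorticoid-induced (11 tested, median -0.04), ATF4 and ER stress (18, -0.07), heat-shock and metallothionein (13, 0.08), cell-division (32, 0.05), glycolysis and hypoxia-linked (21, 0.02), lysosome (24, -0.02) and ribosomal protein genes (85, 0.11). At an unadjusted p below 0.05 (12.1% of all genes tested) they held 4, 6, 2, 10, 3, 9 and 0 members, and DESeq2 called 0 in each. The ribosomal protein genes differed between replicates, with a median of 0.33 in replicate 1 and -0.15 in replicate 2. Herpud1 of the ER stress list (-0.39, adjusted p = 0.0434), Cdc20 of the cell-division list (0.27, 0.0464) and Cebpd of the glucocorticoid list (-0.44, 0.0179) passed the adjusted p alone. Within the lysosome list, the acid lipase Lipa (0.44, adjusted p = 0.0018) and Gpnmb (0.25, 0.011) passed the adjusted p alone. Actb, the endogenous control of the RT-qPCR in the study, was at 6762 and 6842 CPM in DMSO + LPS and at 6245 and 5749 CPM at 10 µM (-0.18 ± 0.04, adjusted p = 0.0742).

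**Figure D4:**
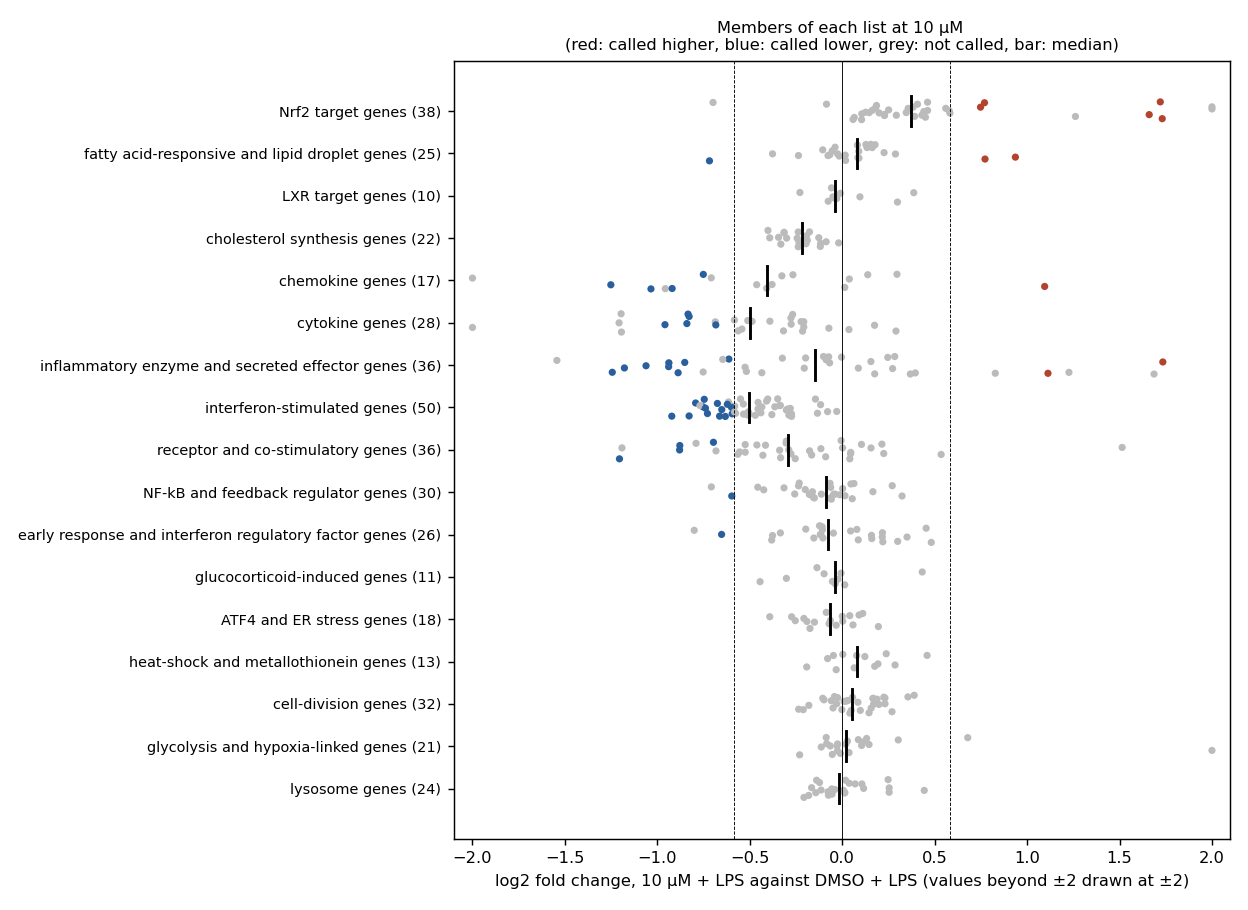
Points are the tested members of 17 gene lists, placed at their log2 fold change at 10 µM against DMSO + LPS, and bars are list medians. All interferon-stimulated genes lie left of 0 and 36 of 38 Nrf2 target genes lie right of it, whereas lists such as cell-division and lysosome genes center near 0.

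Genes lower at 10 µM mostly stayed far above unstimulated cells. Against DMSO without LPS, a comparison that uses the same 10 µM libraries, 72 of the 82 were still called higher, 2 were called lower and 8 were not called, while 14.7% of all genes tested were called higher and 27.7% in either direction. Il1b was at 1.16 and 1.14 CPM and Ccl2 at 22.8 and 23.3 CPM without LPS. The 2 below DMSO were Tlr8 and the guanine deaminase Gda, which was at 26.4 and 30.2 CPM without LPS, 12.4 and 10.7 CPM in DMSO + LPS and 7.52 and 6.61 CPM at 10 µM. Spp1 lay close to unstimulated cells, at 1124 and 1119 CPM in DMSO. Of the 40 genes higher at 10 µM, 24 were called above DMSO without LPS, 7 below it and 9 were not called. Those below it, such as Cxcr4, at 47.1 and 42.6 CPM in DMSO, 1.76 and 1.85 CPM in DMSO + LPS and 3.42 and 3.49 CPM at 10 µM, had moved part of the way toward the level without LPS. Cpt1a and Ank, an exporter of pyrophosphate, were also between both controls, with Ank at 1331 and 1366 CPM in DMSO, 759 and 759 CPM in DMSO + LPS and 1144 and 1142 CPM at 10 µM.

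Tested directly against the dose above, 187 genes (1.32%) were called, 24 higher (0.169%) and 163 lower (1.15%) at 32 than at 10 µM. Replicate 2 at 32 µM held 3.74% of its counts in ribosomal RNA genes, against at most 0.287% in every other library, and without it 139 genes were called. The part of these reads in the comparisons with 32 µM was not tested. Ccl2 (log2 fold change of 32 against 10 µM -1.37 ± 0.04, adjusted p = 1.37e-05), Il1a (-1.32 ± 0.05, 2.12e-05) and Ifit3 (-1.24 ± 0.04, 2.12e-05) had the smallest p among genes also called at 10 µM. Of the 50 interferon-stimulated genes 41 were called lower at 32 than at 10 µM, and their median was -0.94. Thbs1 fell by another 2.19, and Nqo1, Adh7 and Plin2 were higher by 0.97, 1.21 and 1.02. Some genes gained little, as with Mmp9 (-0.36, adjusted p = 0.233), Pmepa1 (-0.01, 0.99) and Ank (0.11, 0.242), none of which was called between 10 and 32 µM.

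Against the dose below, 36 genes (0.254%) were called, 10 higher (0.0706%) and 26 lower (0.183%) at 10 than at 3.2 µM. This count rested on single libraries, with 6 calls without replicate 1 at 3.2 µM, 5 without its replicate 2, 22 without replicate 1 at 10 µM and 66 without replicate 2. Ccl2 was at 905 and 879 CPM at 3.2 µM, which left a difference of -1.10 ± 0.04 (adjusted p = 6.99e-05), followed by Il1a (-0.95 ± 0.05, 0.000344) and Il1b (-0.81 ± 0.04, 0.00042). Nqo1 (1.32 ± 0.11, adjusted p = 0.00311) and Adh7 (0.93 ± 0.06, 0.00106) were among those higher. For Nos2, at 144 and 150 CPM at 3.2 µM, the difference did not pass (-0.40 ± 0.09, adjusted p = 0.102), and Pmepa1, at 73.5 and 69.1 CPM, was already near its 10 µM level of 84.2 and 74.1 CPM (0.15, 0.77). Against DMSO + LPS, edgeR's test with adjustment called 0 genes (0.00%) at 3.2 µM, where 120 passed the unadjusted p with the 1.5-fold limit and DESeq2 called 8. At 32 µM edgeR called 592 (4.18%), 180 higher (1.27%) and 412 lower (2.91%). Of the genes called at 10 µM only Kif9 and Gm6634, both below 2 CPM, were not called at 32 µM.

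**Figure D5:**
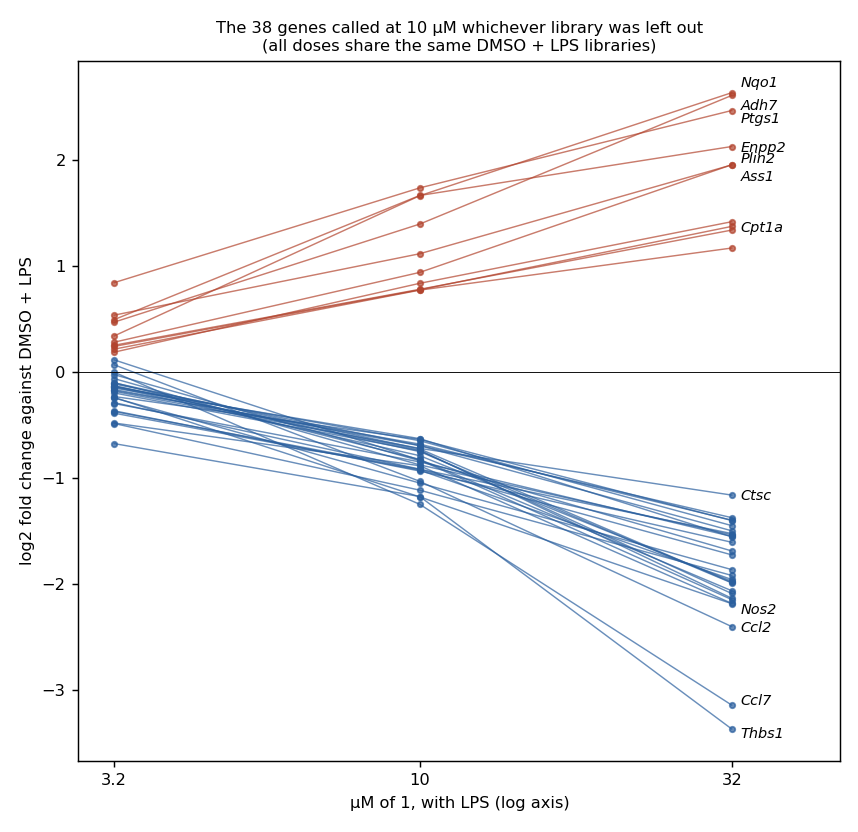
Log2 fold change against DMSO + LPS at 3.2, 10 and 32 µM (log axis) for the 38 genes called at 10 µM whichever library was left out, in red where higher and in blue where lower. All points of a gene share the same DMSO + LPS libraries, and at 10 µM the values run from -1.25 for Ccl7 to 1.73 for Ptgs1.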

How the data were processed

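RNA of RAW264.7 cells was sequenced in 10 libraries, 2 per condition. Per the methods, the libraries were stranded, came from poly(A) RNA and were read for 150 cycles from each end on 1 lane. The values deposited by the authors are raw counts per Ensembl gene, without normalization. The submitters' processing notes name Trimmomatic, FastQC, STAR, DESeq2 and the mm10 build, with no versions, and the counting tool is not given in the sources used here. Symbols and positions are from GENCODE M21 (GRCm38), and 884 identifiers without one held 0.0948% of the counts.

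Genes were kept by filterByExpr (minimum count 10), scaled by TMM and fitted in edgeR 4.0.16 (R 4.3.3) with 1 mean per condition over all 10 libraries, which left 5 residual degrees of freedom. Quasi-likelihood F tests were two-sided, and p-values were adjusted by Benjamini-Hochberg over 14172 genes. An exact permutation test of 2 against 2 libraries cannot go below p = 0.333. CPM values per library are on the TMM-scaled total, and SE is that of the log2 fold change. Data were simulated with 50 genes changed at each of 4 fold sizes, all at a mean of at least 5 CPM, and 13875 genes were tested. The same steps recovered 20 genes at 1.5-fold, 48 at 2-fold, 49 at 3-fold and 50 at 4-fold, with 6 false calls. Counts were drawn independently for each library, with the spread fitted to these data. Differences shared by libraries and transcripts held by single libraries were not simulated, so recovery and false calls in these data may differ. DESeq2 1.42.0 served as an alternative.

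The members and gene lists were chosen with earlier results of these data known. Genes were named from the 15 highest and 15 lowest called genes with a mean of at least 5 CPM and groups that do not overlap, list members that were called or had the smallest p (in lists with no call, mostly those that passed the adjusted p), Nqo1, Nos2 and Actb, and genes leading the dose comparisons. Others, such as Tnf, Hmox1, the receptor genes, Selp and Kif9, were named after their values were seen. Counting errors cover the sampling of reads alone. Values of a few list members are not reported here.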

Additional observations from a re-analysis of the deposited data

How the results depend on the processing

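With 2 libraries a condition, counts of calls depended on the processing. The medians of the LXR target (-0.06 to 0.03), early response (-0.08 to 0.05) and glycolysis (-0.01 to 0.04) lists lay on both sides of 0. Of the 122 called genes at 10 µM (40 higher, 82 lower), 36 remained with a 2-fold limit (17 and 19) and 424 passed with an unadjusted p (235 and 189). Fitting the 4 libraries alone gave 41 calls by edgeR (11 higher, 30 lower) and 130 by DESeq2 (32 and 98), and a short-transcript score as a covariate 231 (81 and 150). Genes called higher rose to 67 without the count filter, 70 by edgeR's likelihood ratio test and 61 by DESeq2 on all 10 libraries. Leaving out 1 library gave 52 to 227 calls, 18 to 105 higher and 32 to 122 lower.

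The labels do not tie a replicate number to a shared culture or day. Across 9561 genes, the difference between replicates 1 and 2 at 10 µM had a correlation of -0.417 with that in DMSO + LPS, 0.803 with DMSO, 0.775 with 32 µM and 0.527 with 3.2 µM. With the replicate number as a block 174 genes were called at 10 µM against DMSO + LPS, 77 higher and 97 lower, 225 at 32 against 10 µM in place of 187, 43 at 10 against 3.2 µM in place of 36 and 4145 at 10 µM against DMSO in place of 3924, and with the numbers of DMSO + LPS exchanged, an alternative chosen after seeing the data, 223 were called against DMSO + LPS (114 higher). For 32 against 10 µM the score gave 296 calls in place of 187, and leaving out 1 library 139 to 257. For 10 against 3.2 µM the 36 calls became 61 by the likelihood ratio test, 55 by DESeq2 and 112 with the score, and 5 to 66 without 1 library. For 10 µM with LPS against DMSO, a limit of 5 CPM gave 2593 calls in place of 3924. Some fits had fewer genes or libraries, and the cause of these shifts was not tested. Of the called genes, 15 of the 40 higher and 11 of the 82 lower had a mean below 5 CPM, where counting errors are larger. How far this limited what could be called was not tested.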
